A study of Saccharomyces cerevisiae with 40 samples.

Results

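TUP1, HCM1, TAF2, SNT1, CDC39 and SRD1 are 6 genes of the right arm of chromosome III that act on transcription or on RNA in budding yeast, Saccharomyces cerevisiae. They were picked by gene symbol from the platform annotation, with no use of their values, and are 6 of the 5449 genes named on the array and 6 of the 146 chromosome III genes that could be tested. Each has 1 probe set, and each lay above background on 40 of 40 arrays, where background is the level of probe sets made for other species. Their loci are YCR084C (TUP1), YCR065W (HCM1), YCR042C (TAF2), YCR033W (SNT1), YCR093W (CDC39) and YCR018C (SRD1).

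Tup1 joins Cyc8 in a corepressor that DNA-binding repressors bring to genes of sugar use, low oxygen, mating and DNA damage. Hcm1 is a forkhead activator of late S-phase genes, Taf2 is a subunit of the promoter-binding complex TFIID, and Snt1 belongs to the Set3 histone deacetylase complex. Cdc39, also known as Not1, is the scaffold of the Ccr4-Not complex, which shortens poly(A) tails and also acts on transcription. Srd1 carries a zinc finger of the GATA kind and has been linked to the processing of ribosomal RNA precursors. In yeast with an altered chromosome number, most genes of that chromosome are known to change transcript level along with their copy number, and the transcripts of these 6 regulators were therefore followed beside the rest of chromosome III.

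The study evolved yeast under heat or high pH and measured mRNA on 40 one-colour arrays. An unevolved clone with 3 copies of chromosome III (trisomic) and one with 1 copy (monosomic) had 1 array each, so each stands for a single clone. Diploid populations had been kept for 450 generations at 39 °C from the start (abrupt heat, 4 arrays), under heat raised stepwise between 30 °C and 39 °C (gradual heat, 4 arrays) or at 30 °C (2 arrays). The H2 line, which the labels derive from abrupt heat without saying from which population, had spent a further 600 generations at 30 °C (4 arrays) or a further 1000 generations at 39 °C on minimal medium (2 arrays). Descendants of the trisomic clone had spent 1000 generations at 39 °C on minimal medium (2 arrays). The diploid ancestor had 2 arrays, and 1 more on minimal medium. Haploid cells had been kept at pH 8.6 for 150 generations (1 array) or 750 generations (4 arrays), and the pH line gave 1 array of a disomic spore and 1 of a euploid spore. The labels further list 8 spores of a line evolved at 39 °C, with no copy number, and 2 arrays of the haploid ancestor. All cells were harvested in mid log phase after 18 generations without stress.

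The deposited log2 values fall into 9 sets that appear to have been normalized apart. A difference between arrays is therefore given within a set, and 27 arrays share a set with an ancestor array, called the same-run ancestor here. Where arrays of several sets are compared, each value is centred on its array's median over genes of the other chromosomes. Fitted changes are from limma with a term for the set, a change is called at an adjusted p below 0.05, and the error after a fitted change is its standard error (SE). A group with 1 array is assumed to vary like the replicated groups. The 4 gradual-heat arrays were unusually close to each other: the SD of the difference between a pair of them was 0.056 to 0.093 over genes, against 0.179 to 0.242 between the H2 arrays from 30 °C. These arrays enter the spread shared by all diploid comparisons, so counts of called regulators, partners and targets in diploids are also given without them, as an alternative chosen after the data were seen. The populations were measured in bulk, so a smaller share of cells with an extra chromosome and a lower transcript level in every cell cannot be told apart.

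The copy-number clones were compared first, because their labels give the number of chromosome III copies. TUP1 stood at 10.93 in the trisomic clone, 10.07 in the monosomic clone and 10.41 in the same-run diploid ancestor. HCM1 stood at 9.78 in the trisomic clone, 8.44 in the monosomic clone and 9.22 in that ancestor. TAF2 had 9.46, 8.18 and 8.83 in the same order of arrays. All 3 genes were highest with 3 copies and lowest with 1 copy. SNT1 had 10.18 in the trisomic clone, 8.92 in the monosomic clone and 9.50 in the ancestor. CDC39 had 11.22, 9.92 and 10.63, and SRD1 had 7.91, 6.18 and 6.68 in those arrays. The order of the arrays was the same for all 6 regulators.

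Trisomic cells exceeded the ancestor by 0.52 in TUP1, 0.56 in HCM1, 0.62 in TAF2, 0.68 in SNT1, 0.59 in CDC39 and 1.22 in SRD1, on the log2 scale. The other 140 genes of chromosome III had a median of 0.49, and the log2 of the copy ratio is 0.58. SRD1 had the highest difference of all 146 chromosome III genes in the trisomic clone, where it ranked 1. Against the ancestor, monosomic cells differed by -0.34 in TUP1, -0.78 in HCM1, -0.65 in TAF2, -0.58 in SNT1, -0.71 in CDC39 and -0.50 in SRD1. The remaining chromosome III genes had a median of -0.51 there, and none of the 6 reached the copy-ratio value of -1. TUP1 showed the smallest monosomic difference of the 6 and HCM1 the largest.

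Between trisomic and monosomic cells, limma called all 6 regulators higher in the trisomic clone, where 3.26% of all 5335 genes were called higher (3.69% in either direction) and so were 113 of the 139 other chromosome III genes tested in that fit. TUP1 rose by 0.86 ± 0.11 (SE; adjusted p = 0.000346), a 1.82-fold difference. HCM1 rose by 1.34 ± 0.19 (adjusted p = 0.000672), TAF2 by 1.27 ± 0.11 (adjusted p = 1.69e-05) and SNT1 by 1.26 ± 0.13 (adjusted p = 4.48e-05). CDC39 rose by 1.30 ± 0.23 (adjusted p = 0.00351) and SRD1 by 1.73 ± 0.29 (adjusted p = 0.00259). For SRD1 that was a 3.31-fold difference. The median of the 6 was 1.29, beside 1.02 for the rest of chromosome III and 0.01 for all genes. Only SRD1 exceeded the log2 copy ratio of 1.58. Without the gradual-heat arrays in the spread, 6 of 6 were called, but 0 of 6 were without a set term and 0 of 6 with all 40 arrays in 1 fit. Against the ancestor, fewer passed: TAF2 (adjusted p = 0.0415) and SNT1 (adjusted p = 0.0466) were called higher in the trisomic clone, where 0.394% of all genes were, and TAF2 alone (adjusted p = 0.0181) lower in the monosomic clone, where 0.75% of all genes were. Both counts were 0 once the gradual-heat arrays were left out of the spread.

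Genes next to the regulators were also read in these clones. CWH43 and MAK32, which flank SRD1, exceeded the ancestor by 0.47 and 0.48 in the trisomic clone and differed by -0.57 and -0.65 in the monosomic clone. SRD1 was thus apart from both of its neighbours in the trisomic clone and close to them in the monosomic clone, against this 1 ancestor array. That ancestor array read -2.67 for SRD1 on the centred scale, the other diploid ancestor array -1.53, and the trisomic and monosomic clones -1.47 and -3.17, so the sizes of both differences rest on that reading. TRX3, a mitochondrial thioredoxin beside TUP1, had 0.47 in the trisomic and -0.57 in the monosomic clone. RAD18 of DNA repair and the splicing factor gene BUD31, at the sides of HCM1, had 0.65 and 0.51 in trisomic cells and -0.32 and -0.51 in monosomic cells. MSH3 of mismatch repair and the flippase subunit gene CDC50, around CDC39, had 0.60 and 0.48 in trisomic cells against -0.58 and -0.55 in monosomic cells. SNT1 lay between BPH1 at 0.58 and -0.98 and the fatty-acid elongase gene ELO2 at 0.26 and -0.49 (trisomic and monosomic difference from the ancestor). YCR043C beside TAF2 had 0.35 and -0.35.

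**Figure D1:**
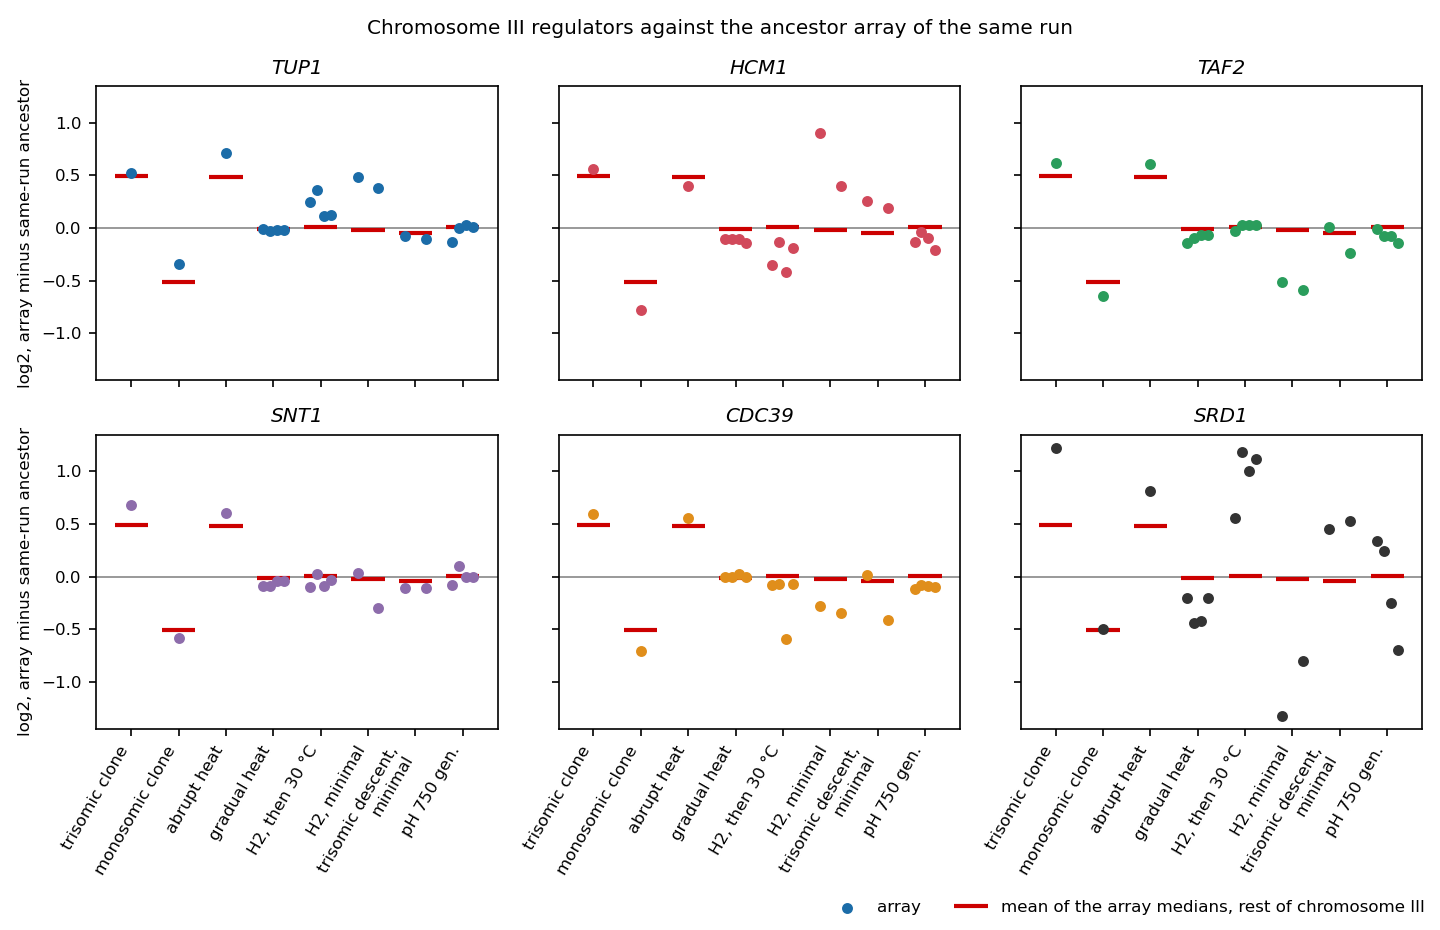
Each panel plots 1 regulator, with the log2 difference of an array from its same-run ancestor on the y axis and the groups on the x axis. Points are arrays and red bars are the mean over arrays of the median of the other chromosome III genes. In the trisomic clone every regulator lies above 0.5 and SRD1 is highest at 1.22, while SRD1 also reaches 0.56 to 1.18 in the H2 arrays from 30 °C, where the chromosome's median is near 0.

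Partners and targets of the regulators were then examined for the same contrast, trisomic against monosomic. Other chromosome III genes of transcription and chromatin were called higher in 5 of 5 cases: AHC2 of the ADA complex at 1.17, SRB8 of the Mediator kinase module at 1.17, SGF29 of SAGA at 1.13, the karyogamy factor KAR4 at 1.10 and RSC6 of the RSC remodeler at 0.94. All 5 were called without the gradual-heat arrays too. Genes of the partners on other chromosomes had medians near that of all genes. Of the 5190 genes tested outside chromosome III, only 55 were called higher and 23 lower. At that share, short lists are likely to hold no call, so the counts below say little about the partners. None of 8 genes for Tup1 partners and recruiting repressors was called (median -0.05), and their largest values were -0.49 for NRG2 and -0.40 for NRG1. None of the 14 TFIID genes was called (median -0.09, TAF5 at -0.23 and TAF1 at 0.20 being the largest), and none of 6 Set3 complex genes (median 0.00, SET3 at 0.22 and HOS2 at -0.09). None of 9 Ccr4-Not genes was called (median -0.05, NOT3 at -0.20 and MOT2 at -0.13).

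Targets gave the same counts, which are to be read beside the same low share of calls outside chromosome III (55 higher and 23 lower of 5190 genes). Of 17 measured genes known to be repressed through Tup1-Cyc8, none was called between trisomic and monosomic cells (median -0.01), and the values ran from -0.62 for the DNA damage gene HUG1 to 0.53 for the cytochrome gene CYC7. Of 10 late S-phase genes known as Hcm1 targets, none was called (median 0.07), with -0.27 for the microtubule gene BIM1 and 0.24 for the forkhead gene FKH1 as the largest. A value that misses the threshold in a comparison of 1 array with 1 does not show that the gene was equal in both clones.

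Abrupt heat was next set against the ancestor, gradual heat and 30 °C. Centred TUP1 levels were 1.83, 1.79, 1.88 and 1.56 after abrupt heat, 1.02 and 1.08 after evolution at 30 °C, and 1.06 and 1.08 in the diploid ancestor. HCM1 had 0.30, 0.28, 0.50 and -0.16 after abrupt heat, -0.38 and -0.20 after 30 °C, and -0.13 and -0.49 in the ancestor. SNT1 had 0.76, 0.77, 0.76 and 0.36 after abrupt heat, -0.04 and 0.25 after 30 °C, and 0.15 and -0.06 in the ancestor. All abrupt-heat arrays lay above both other groups in TUP1 and SNT1, and for HCM1 abrupt-heat array 4 fell between the values of the ancestor. CDC39 had 1.60, 1.85, 1.72 and 1.29 after abrupt heat, 0.88 and 1.27 after 30 °C, and 1.28 and 1.25 in the ancestor. TAF2 had -0.02, 0.11, 0.03 and -0.21 after abrupt heat, -0.73 and -0.44 after 30 °C, and -0.52 and -0.09 in the ancestor. CDC39 stayed above the other groups in all abrupt-heat arrays, though narrowly in array 4 (1.29, against 1.28 in an ancestor array), and TAF2 overlapped the ancestor. Abrupt-heat array 4 was the lowest of its group for these 5 genes. SRD1 had -1.63, -1.84, -2.02 and -1.30 after abrupt heat, -2.74 and -1.97 after 30 °C, and -2.67 and -1.53 in the ancestor, and the abrupt-heat values overlapped those of both other groups.

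Abrupt-heat array 2 is the one with a same-run ancestor. It exceeded that ancestor by 0.71 in TUP1, 0.40 in HCM1, 0.61 in TAF2, 0.60 in SNT1, 0.56 in CDC39 and 0.81 in SRD1, where the rest of chromosome III had a median of 0.48. All 6 differences were positive. In limma, which rests on this pair of arrays once the set is a term, TUP1 rose by 0.71 ± 0.11 (adjusted p = 0.0222) and TAF2 by 0.61 ± 0.11 (adjusted p = 0.0376), so 2 of 6 were called higher, where 0.262% of all genes were, and 0.0375% lower. SNT1 had an adjusted p of 0.0682. Without the gradual-heat arrays in the spread, 0 of 6 were called, and the adjusted p was 0.292 for TUP1 and 0.468 for TAF2. Leaving out abrupt-heat array 1 or 3 moved TAF2 to an adjusted p of 0.0543.

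Abrupt-heat array 4 shares its set with 30 °C array 1 and exceeded it by 0.51 in TUP1, 0.19 in HCM1, 0.48 in TAF2, 0.37 in SNT1, 0.38 in CDC39 and 1.41 in SRD1. The rest of chromosome III had a median of 0.50. Once the set is a term, the limma contrast of abrupt heat with 30 °C rests on this pair of arrays, because no other set holds both groups. TUP1 (adjusted p = 0.0428) and SRD1 (1.41 ± 0.29, adjusted p = 0.0339) were called higher by limma, 2 of 6, where 1.18% of all genes were, and 0 of 6 were called without the gradual-heat arrays, with an adjusted p of 0.293 for TUP1 and 0.172 for SRD1. TUP1 also lost its call without abrupt-heat array 1 (adjusted p = 0.0542) or 3 (adjusted p = 0.0543). Set beside the trisomic clone of the same run, abrupt-heat array 2 differed by 0.19 in TUP1, -0.17 in HCM1, -0.01 in TAF2, -0.07 in SNT1, -0.04 in CDC39 and -0.41 in SRD1, and the rest of chromosome III by -0.01.

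Gradual heat left the regulators near the ancestor of its run. Over the 4 gradual-heat arrays the difference from that ancestor was -0.03 to -0.01 in TUP1, -0.14 to -0.11 in HCM1, -0.14 to -0.07 in TAF2, -0.09 to -0.04 in SNT1 and 0.00 to 0.02 in CDC39. SRD1 stood at -0.20, -0.44, -0.42 and -0.20. The rest of chromosome III had medians of -0.02 to -0.01. None of the 6 was called against the ancestor, where 0.075% of all genes were, and SRD1 had a fitted change of -0.31 ± 0.23.

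Centred levels were compared between the 4 abrupt-heat and the 4 gradual-heat arrays by a two-sided exact permutation test over 70 arrangements, in which 0.0286 is the smallest p possible. TUP1 averaged 1.77 ± 0.14 after abrupt heat and 1.06 ± 0.01 after gradual heat (SD, n = 4 each; exact p = 0.0286). HCM1 averaged 0.23 ± 0.28 after abrupt heat and -0.61 ± 0.02 after gradual heat (SD, n = 4 each; exact p = 0.0286). SNT1 averaged 0.66 ± 0.20 after abrupt heat and -0.12 ± 0.04 after gradual heat (SD, n = 4 each; exact p = 0.0286). These 3 genes were higher in every abrupt-heat array than in any gradual-heat array. CDC39 differed by 0.35 (exact p = 0.0571), TAF2 by 0.16 (exact p = 0.114) and SRD1 by 0.14 (exact p = 0.457), and their groups met or overlapped. In all, 12 such tests were made, and these p-values are not adjusted. Pairs of gradual-heat arrays had 666 to 1011 genes with identical values, against 42 to 71 for pairs of H2 arrays from 30 °C. The 4 gradual-heat arrays may therefore not be independent of each other, and the test treats them as if they were. No set holds both groups, so set and group cannot be told apart here. The diploid ancestor arrays themselves differed. TAF2 was higher in that of the gradual-heat set (-0.09) than in the other (-0.52), and so was SRD1 (-1.53 against -2.67). HCM1 was lower there (-0.49 against -0.13), and so were SNT1 (-0.06 against 0.15) and the median of the rest of chromosome III (-0.24 against 0.02). TUP1 (1.08 against 1.06) and CDC39 (1.25 against 1.28) were close. The fit with a set term, which links the groups through the ancestor arrays, called none of the 6, where 0.0187% of all genes were called.

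**Figure D2:**
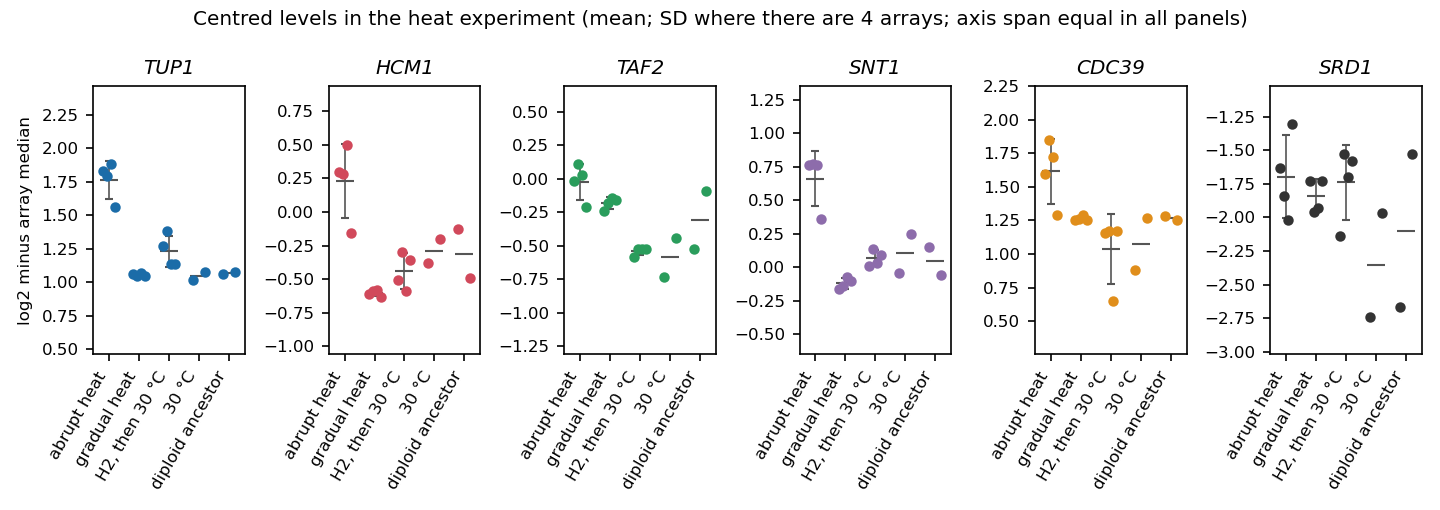
Each panel plots 1 regulator in the heat experiment, as log2 minus the array median on the y axis, for abrupt heat, gradual heat, H2 after 30 °C, evolution at 30 °C and the diploid ancestor. Points are arrays, horizontal lines are means and vertical bars are SD over 4 arrays. Abrupt-heat arrays form the highest group for TUP1 and SNT1, and the SRD1 panel shows overlapping groups.

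H2 arrays from 30 °C were compared with abrupt heat to read the regulators once heat had ended. These 4 arrays had centred TUP1 levels of 1.27, 1.38, 1.14 and 1.14, all below the abrupt-heat arrays given above. HCM1 had -0.51, -0.30, -0.59 and -0.36, SNT1 0.01, 0.14, 0.03 and 0.09, and TAF2 -0.58, -0.52, -0.52 and -0.52. CDC39 had 1.16, 1.17, 0.65 and 1.17. For each of these 5 genes the H2 arrays were lower than every abrupt-heat array. SRD1 had -2.14, -1.53, -1.70 and -1.58, within the span of the abrupt-heat arrays but for the lowest value.

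With the set as a term, limma compares the 4 H2 arrays with abrupt-heat array 2 alone, the one of the same set. TUP1 fell by 0.50 ± 0.09 (adjusted p = 0.0134), HCM1 by 0.67 ± 0.15 (adjusted p = 0.0457), TAF2 by 0.60 ± 0.09 (adjusted p = 0.00439) and SNT1 by 0.65 ± 0.10 (adjusted p = 0.00614) in H2 relative to abrupt heat. That made 4 of 6 called lower, where 1.5% of all genes were (1.78% in either direction), and 64 of the 139 other chromosome III genes tested in that fit. CDC39 had a fitted change of -0.76 ± 0.18 (adjusted p = 0.0533) and SRD1 of 0.16 ± 0.23 (adjusted p = 0.874). The median of the 6 was -0.63, beside -0.46 for the rest of the chromosome and 0.03 for all genes. Without the gradual-heat arrays in the spread, 0 of 6 were called, and the lowest adjusted p was 0.0828 for TAF2. HCM1 lost its call when 1 of 5 arrays was left out, with an adjusted p of 0.0963 without H2 array 3, 0.0643 without H2 array 1, 0.055 without H2 array 4, 0.0505 without abrupt-heat array 1 and 0.0506 without abrupt-heat array 3. The exact permutation test of centred values, abrupt heat minus H2, gave 0.53 for TUP1, 0.67 for HCM1, 0.51 for TAF2, 0.60 for SNT1 and 0.58 for CDC39. Each of these had the smallest possible exact p of 0.0286, and SRD1 had 0.04 (exact p = 0.886). All 4 H2 arrays lie in 1 set, and abrupt-heat arrays 1, 3 and 4 lie in others. Set and group are therefore largely not told apart in this test. The 4 H2 arrays also come from 1 line, so they may not be independent of each other. RSC6 and AHC2 of the other chromosome III chromatin genes were called lower as well, by 0.48 and 0.40 on the log2 scale (median -0.40 over the 5 genes), and 0 of the 5 were called without the gradual-heat arrays. None of the 8 Tup1 partners, 17 Tup1-Cyc8 targets, 10 Hcm1 targets, 14 TFIID, 6 Set3 complex and 9 Ccr4-Not genes was called between H2 and abrupt heat, and the medians of these lists ran from -0.03 to 0.12.

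Measured against its same-run ancestor, the H2 line from 30 °C showed values near 0 in 2 regulators and apart from 0 in SRD1. TAF2 stood at -0.03, 0.03, 0.03 and 0.03 and SNT1 at -0.10, 0.02, -0.09 and -0.03. TUP1 stood at 0.25, 0.36, 0.11 and 0.12, HCM1 at -0.35, -0.13, -0.42 and -0.19, and CDC39 at -0.08, -0.07, -0.59 and -0.07. SRD1 stood at 0.56, 1.18, 1.00 and 1.12, while the rest of chromosome III had medians of -0.01 to 0.02. SRD1 was above this ancestor array in 4 of 4 arrays, TUP1 likewise, and HCM1 below it in 4 of 4. All 4 differences share that array, whose centred SRD1 level of -2.67 was below the -1.53 of the other diploid ancestor array, and the H2 mean of -1.74 ± 0.28 lay near those after abrupt heat (-1.70 ± 0.31) and gradual heat (-1.84 ± 0.12; SD, n = 4 each). None of the 6 was called, where 0.075% of all genes were (0.0375% higher and 0.0375% lower), SRD1 having a fitted change of 0.97 ± 0.23 (adjusted p = 0.386), and none without the gradual-heat arrays. A direct contrast of gradual heat with H2, added after these values were seen, gave -1.28 ± 0.32 for SRD1 (adjusted p = 0.999) and called none of the 6, where 0.0187% of all genes were called.

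On minimal medium, the H2 line after 1000 further generations of heat was compared with the ancestor on that medium. That ancestor has 1 array, against which the trisomic descendants are read too. Its centred HCM1 level of -0.92 was the lowest of the 23 diploid arrays. TUP1 stood at 10.88 and 10.78 in H2, against 10.40 in the ancestor. HCM1 stood at 9.76 and 9.25 in H2, against 8.85 in the ancestor. TAF2 stood at 9.28 and 9.20 in H2, against 9.79 in the ancestor. Both H2 arrays were above the ancestor for TUP1 and HCM1 and below it for TAF2. SRD1 stood at 7.27 and 7.79 in H2, against 8.59 in the ancestor, and CDC39 at 10.87 and 10.80 in H2, against 11.15. SNT1 stood at 10.24 and 9.91 in H2, against 10.21 in the ancestor. SRD1 and CDC39 were lower in both H2 arrays, and the SNT1 arrays lay on either side of the ancestor.

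TUP1 rose by 0.43 ± 0.10 (adjusted p = 0.00221) and HCM1 by 0.65 ± 0.17 (adjusted p = 0.00482) in H2 on minimal medium. TAF2 fell by 0.55 ± 0.10 (adjusted p = 0.00029) and SRD1 by 1.06 ± 0.25 (adjusted p = 0.00278). These 4 calls in limma stand beside a background of 30.6% of all genes called higher and 27.3% called lower (58% in all), so the share of called regulators is near that of genes at large. The same 4 were called without the gradual-heat arrays, while 0 were without a set term, 0 with the compared groups alone and 1 with all 40 arrays in 1 fit. SNT1 had -0.14 ± 0.11 and CDC39 -0.31 ± 0.20. The rest of chromosome III had a median of -0.03 and -0.01 in the H2 arrays.

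Descendants of the trisomic clone on minimal medium gave no call among the regulators. TUP1 stood at 10.32 and 10.29 in these descendants, against 10.40 in the ancestor on that medium, HCM1 at 9.11 and 9.04 against 8.85, and TAF2 at 9.80 and 9.55 against 9.79. SNT1 stood at 10.10 in both, against 10.21, and CDC39 at 11.16 and 10.73 against 11.15. SRD1 stood at 9.03 and 9.11 in the descendants, against 8.59 in the ancestor. Both descendant arrays were above the ancestor for HCM1 and SRD1, and below it for TUP1 and SNT1. None of the 6 passed, where 33.8% of all genes did (18.7% higher and 15.1% lower), and SRD1 had a fitted change of 0.49 ± 0.25 (adjusted p = 0.153). The count was also 0 without the gradual-heat arrays. The rest of chromosome III had medians of -0.06 and -0.03 in arrays descended from a clone with 3 copies.

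The difference between both lines on minimal medium was tested directly, in a contrast added after their values were seen. H2 exceeded the trisomic descendants by 0.53 ± 0.08 in TUP1 (adjusted p = 0.00019) and by 0.43 ± 0.14 in HCM1 (adjusted p = 0.0245). TAF2 was lower in H2, with a fitted difference of -0.43 ± 0.08 (adjusted p = 0.000749), and so was SRD1, with -1.55 ± 0.21 (adjusted p = 5.85e-05). SNT1 at -0.03 and CDC39 at -0.11 did not pass. Of all genes, 39.6% were called in this contrast (19.7% higher in H2 and 19.8% lower). Without the gradual-heat arrays HCM1 was not called (adjusted p = 0.0725), while TUP1 (adjusted p = 0.00341), TAF2 (adjusted p = 0.00873) and SRD1 (adjusted p = 0.000629) were.

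Targets and partners on minimal medium were read against the share of all genes called relative to the ancestor, 30.6% higher and 27.3% lower in H2 and 18.7% higher and 15.1% lower in the trisomic descendants. Hcm1 targets were called higher in 8 of 10 cases in H2, where 30.6% of all genes were (median 1.13, against 0.03 for all genes): YHP1, a homeobox repressor of cell-cycle genes, at 2.83, the microtubule regulator STU2 at 2.20, FKH1 at 1.71, the kinetochore gene SPC34 at 1.40, the kinesin gene CIN8 at 1.16, the kinetochore gene DSN1 at 1.11, BIM1 at 0.55 and the G1 inhibitor WHI5 at 0.48. YHP1 stood at 9.54 and 9.45 in H2, at 8.84 and 8.57 in the trisomic descendants, and at 6.67 in the ancestor. Both lines were far above the ancestor in YHP1, but they share its 1 array, so their counts against it are not independent. The trisomic descendants had 7 of 10 called higher, where 18.7% of all genes were (median 0.73, against 0.01 for all genes): YHP1 at 2.04, STU2 at 1.44, FKH1 at 1.07, CIN8 at 0.82, SPC34 at 0.78, DSN1 at 0.68 and BIM1 at 0.31. HCM1 itself was not called in those descendants (0.22 ± 0.17). NDD1 and FKH2 were called in neither line. With the gradual-heat arrays left out, 7 of 10 targets were called higher in H2, where 25.8% of all genes were, and 6 of 10 in the trisomic descendants, where 11.9% were.

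Of the 17 Tup1-Cyc8 target genes measured, 4 were called higher and 9 lower in H2 on minimal medium (median -0.57), where 58% of all genes were called, 30.6% higher and 27.3% lower. The higher ones were the ADP/ATP carrier gene AAC3 at 2.00, HUG1 at 1.56, the anaerobic gene ANB1 at 1.15 and the ribonucleotide reductase gene RNR4 at 0.36. The lower ones were the a-factor exporter gene STE6 at -1.58, the flocculin gene FLO1 at -1.31, GAL1 of galactose use at -1.23, the invertase gene SUC2 at -1.11, the pheromone receptor gene STE2 at -1.10, the a-factor gene MFA1 at -0.999, the flocculin gene FLO11 at -0.70, the protease gene BAR1 at -0.57 and RNR3 at -0.55. STE2, STE6, MFA1, MFA2 and BAR1 are also a-specific genes, and 5 of 6 a-specific genes were called lower in H2. The trisomic descendants had AAC3 at 1.31 and RNR4 at 0.20 called higher and MFA1 at -0.74, SUC2 at -0.52 and STE6 at -0.47 called lower, 5 of 17 where 33.8% of all genes were called. The counts without the gradual-heat arrays were again 4 higher and 9 lower in H2, and 1 higher and 1 lower in the trisomic descendants.

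Partners of the regulators are given beside the 58% of all genes called in H2 on minimal medium. Among the 8 Tup1 partners and recruiters, the corepressor gene CYC8 was called higher at 0.40, and the repressor genes MIG2 at -0.87, ROX1 at -0.86 and SKO1 at -0.75 lower. TFIID had 3 of 14 called higher (TAF14 at 0.36, SPT15 of the TATA-binding protein at 0.31, TAF1 at 0.25) and 2 lower (TAF4 at -0.32, TAF3 at -0.28), 5 of 14 in all. The Set3 complex had the deacetylase gene HOS2 at 0.78 as 1 call of 6. Ccr4-Not had 3 of 9 called higher (the helicase gene DHH1 at 0.74, NOT5 at 0.69, NOT3 at 0.45) and 2 lower (CAF130 at -0.64, CDC36 at -0.32). Of the other chromosome III regulators, SRB8 was called lower at -1.04 and AHC2 higher at 0.74. In the trisomic descendants, MIG2 at -1.03, ROX1 at -0.63, SKO1 at -0.41 and CAF130 at -0.31 were called lower, and TAF1 at 0.45, TAF14 at 0.32, HOS2 at 0.66, SET3 at 0.31 and AHC2 at 0.36 higher. Fewer partners were called in H2 without the gradual-heat arrays: 3 of 8 for Tup1, 1 of 14 for TFIID, 1 of 6 for the Set3 complex and 3 of 9 for Ccr4-Not, against 25.8% of all genes higher and 22.9% lower. In the trisomic descendants these counts were 1 of 8, 1 of 14, 0 of 6 and 0 of 9, against 11.9% higher and 7.71% lower.

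**Figure D3:**
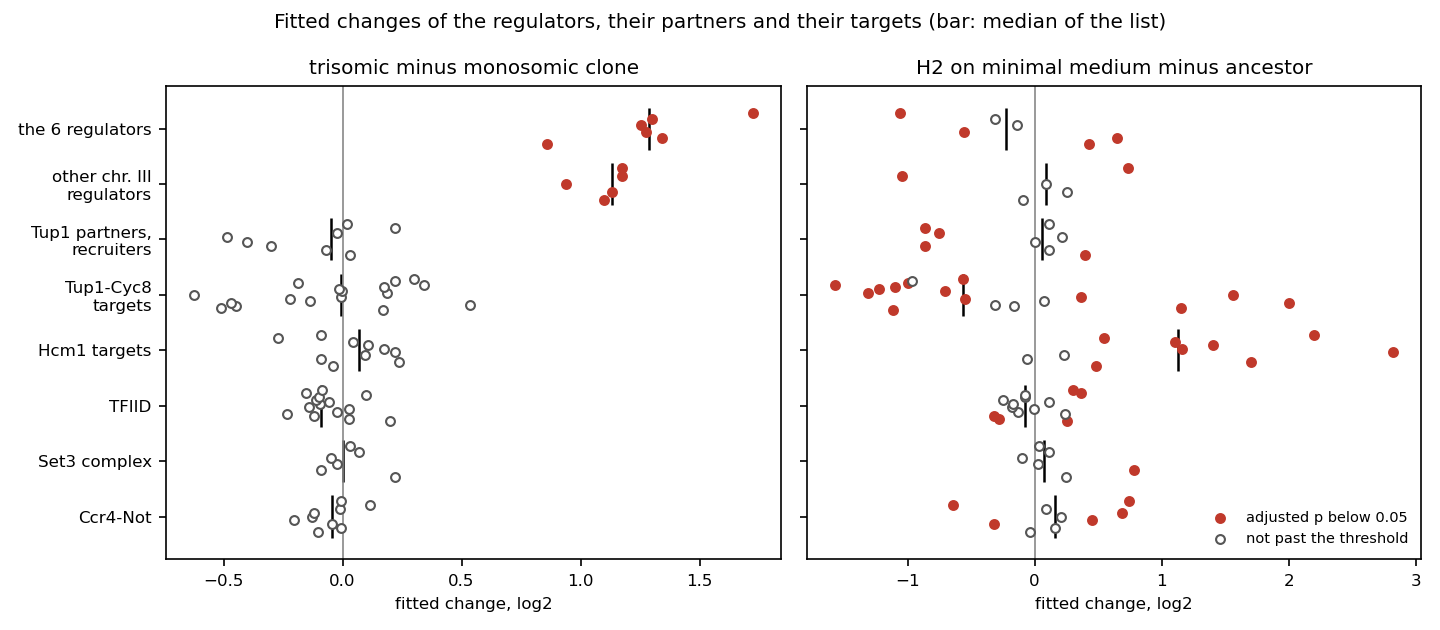
The x axis gives the fitted log2 change, with the trisomic clone minus the monosomic clone on the left and H2 minus the ancestor, both on minimal medium, on the right. Each circle is a gene of the named list, filled where its adjusted p was below 0.05, and a bar marks the list's median. On the left the filled circles are the 6 regulators and 5 other chromosome III regulators, and on the right 8 of 10 Hcm1 targets are filled and above 0.

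High pH gave no call among the regulators. After 750 generations, SRD1 stood at 9.62, 9.52, 9.03 and 8.58, against 9.28 in the same-run haploid ancestor. Arrays 1 and 2 lay above that ancestor and arrays 3 and 4 below it. The other 5 regulators differed from it by -0.21 to 0.10 over the 4 arrays. None of the 6 was called, where 0.149% of all genes were, and SRD1 had a fitted change of -0.09 ± 0.69. Marker genes moved with the comparison: the alpha-specific list averaged 5.86 to 5.96 in the pH arrays and 11.07 in the ancestor array, and the a-specific list 9.98 to 11.19 in the pH arrays and 5.84 in the ancestor array. Their part in the SRD1 values was not tested. None of the 6 a-specific and 4 alpha-specific genes was called in this fit, though the list medians of the fitted change were 4.63 and -4.99. A regulator without a call in this fit is therefore not shown to be unchanged. The haploid-specific list, on the centred scale, was at 0.12, 0.13, -0.59 and -1.14 in pH arrays 1 to 4 and at 0.14 in the ancestor. Between the disomic and the euploid spore of the pH line, HCM1 differed by 0.36, SRD1 by -0.26 and the other 4 regulators by -0.02 to 0.09, with a median of -0.04 over the rest of chromosome III.

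Spores of the 39 °C line were read one at a time, each against the haploid ancestor of its run, because no label gives their chromosome number. The rest of chromosome III had medians of 0.76, 0.77, 0.02, 0.00, 0.73, -0.01, 0.74 and -0.02 in spores 1 to 8. TUP1 stood at 1.02, 0.94, 0.31, 0.20, 1.04, 0.16, 0.99 and 0.24 relative to the ancestor in that order of spores. HCM1 stood at 0.84, 0.82, 0.35, 0.16, 0.57, 0.04, 0.75 and 0.13. Both genes had their 4 highest values in spores 1, 2, 5 and 7, as did the chromosome's median. TAF2 stood at 1.17, 0.92, 0.24, 0.03, 0.86, 0.00, 1.22 and 0.19, SNT1 at 1.01, 1.06, 0.47, 0.09, 0.95, 0.28, 1.10 and 0.34, and CDC39 at 0.89, 0.76, 0.06, 0.14, 0.79, 0.05, 0.81 and 0.06. Their 4 highest values lay in the same spores. SRD1 went another way, at -0.68, 0.90, 0.06, -0.26, -1.72, -0.18, -0.63 and 0.08. It was above the ancestor with the rest of the chromosome in spore 2 and below it in spores 1, 5 and 7, where it ranked 144, 146 and 144 of 146 chromosome III genes.

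Marker lists set the same spores apart. The haploid-specific list, 6 genes of signalling in haploid cells chosen after values were seen, had a centred mean of -3.92, -3.76 and -3.96 in spores 1, 5 and 7, and of 0.16, 0.00, 0.22, 0.24 and 0.04 in spores 2, 3, 4, 6 and 8. It was 0.14 and 0.20 in the haploid ancestor arrays and -3.87 to -2.96 in the diploid arrays. Spores 1, 5 and 7 thus carried haploid-specific levels like those of diploids, while their labels say spore and give no ploidy. The a-specific and alpha-specific lists were low in them as well, at -3.71 to -3.31 and -3.10 to -2.32. What set these levels was not tested. The part of these genes in the SRD1 values was not tested. With all 8 spores as 1 group, limma called none of the 6 regulators against the ancestor, and 0% of all genes. That group joins spores 1, 2, 5 and 7, with chromosome III medians of 0.73 to 0.77, and spores 3, 4, 6 and 8, with -0.02 to 0.02. Its spread includes that gap, so the lack of calls does not show that the regulators were unchanged in each spore. An unadjusted p below 0.05 was reached by 0 of the 6 and by 674 of 5352 genes. With spores 1, 5 and 7 left out together, again none was called, SRD1 having 0.12 ± 0.45, against -0.31 ± 0.66 with all 8. That fit keeps spore 2 alone of the spores with a raised chromosome III median.

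**Figure D4:**
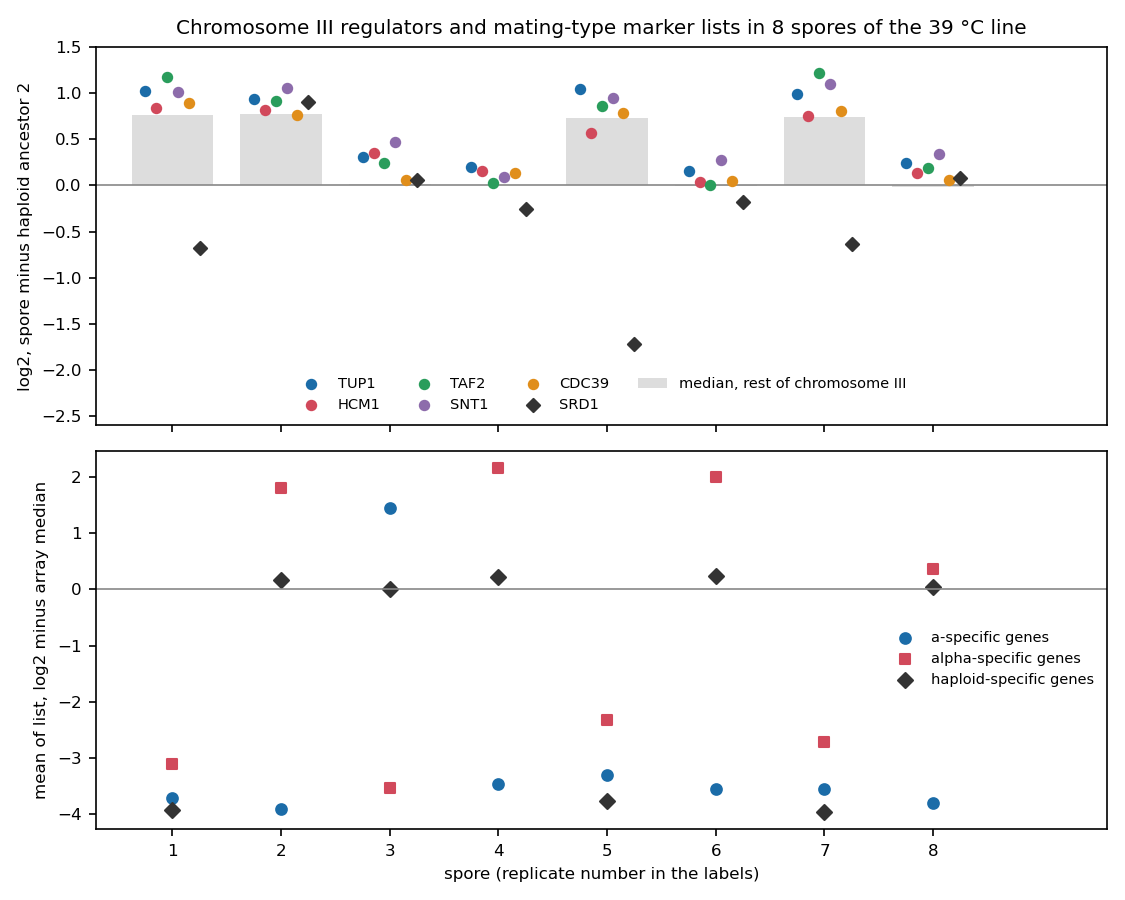
The upper panel plots, for each of the 8 spores on the x axis, the log2 difference of the 6 regulators from the haploid ancestor of the same run, with grey bars for the median of the other chromosome III genes. The lower panel plots the mean of 3 marker lists as log2 minus the array median. SRD1 lies below 0 in spores 1, 5 and 7, where the haploid-specific list lies between -3.96 and -3.76.

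SRD1 was the regulator whose level differed most between haploid and diploid arrays. On the centred scale it ran from -1.19 over a median of 0.23 to 1.42 on the 17 haploid and spore arrays, against -3.17, -1.73 and -0.64 (lowest, median, highest) on the 23 diploid arrays. The ranges overlapped through spore 5 at -1.19, which had haploid-specific levels like those of diploids, as had spores 1 and 7. Within the set of these spores, SRD1 was -0.16, -1.19 and -0.09 in spores 1, 5 and 7. It was 1.42, 0.53, 0.23, 0.33 and 0.56 in spores 2, 3, 4, 6 and 8, and 0.50 in the haploid ancestor of that set. Without the 8 spores of the 39 °C line, the haploid range was -0.67 to 0.50 on 9 arrays, which still met that of the diploids, and did not meet the -3.17 to -1.30 of the 18 diploid arrays on rich medium. Arrays labelled haploid or spore and arrays labelled diploid lie in different sets, so set and labelled ploidy cannot be told apart, and no test was made. The other 5 regulators had overlapping ranges, for example 0.79 to 2.13 on haploid and spore arrays and 0.54 to 1.88 on diploid arrays for TUP1. Among diploids, the arrays above -1.30 were those of the ancestor (-1.19) and the trisomic descendants (-0.74 and -0.64) on minimal medium.

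**Figure D5:**
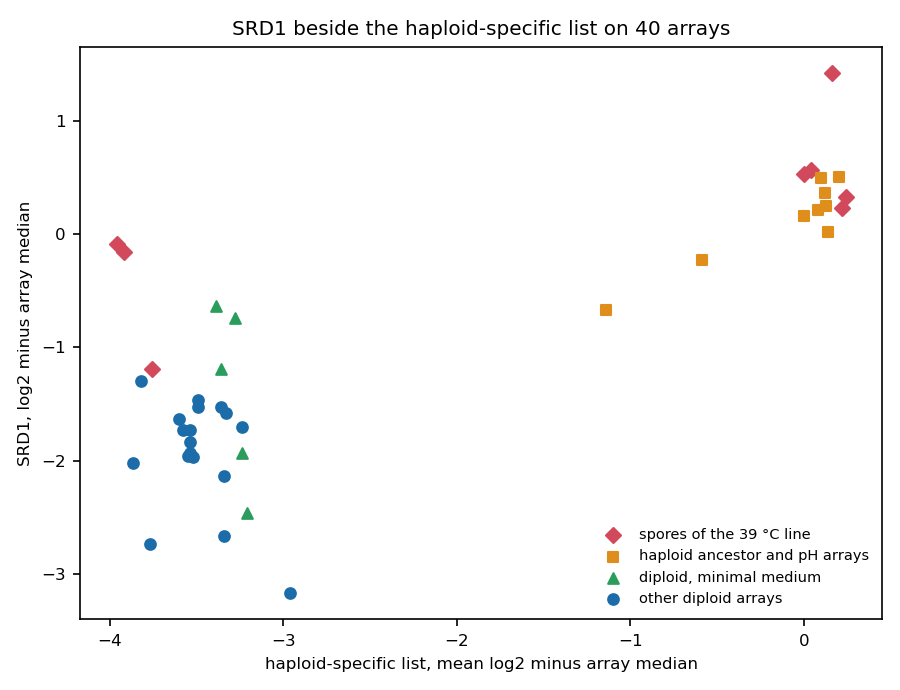
Each point is 1 of the 40 arrays, with the mean of the haploid-specific list on the x axis and SRD1 on the y axis, both as log2 minus the array median. Arrays with a list mean near 0 lie at the top right. On the x axis, 3 spores of the 39 °C line lie near the diploid arrays, at list means of -3.96 to -3.76. Their SRD1 lies between -1.19 and -0.09, against -3.17 to -0.64 in the diploid arrays.

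Genes that varied most like each regulator were looked up over the 27 differences from a same-run ancestor, which share ancestor arrays within a set, so no p is given. TUP1 was closest to the decapping activator gene PAT1 (Pearson r = 0.97), RSC6 (0.96) and PRD1 (0.96). TAF2 was closest to CWH43 (0.98), LDB16 (0.98) and BPH1 (0.96), and SNT1 to PTC6, EMC1 and the prion gene RNQ1 (0.96 each). CDC39 shared its 3 closest genes with SNT1, namely EMC1 (0.95), RNQ1 (0.94) and PTC6 (0.94). HCM1 was closest to RER1 (0.93), VAC17 (0.92) and the profilin gene PFY1 of chromosome XV (0.91). Of the 20 closest genes, 20 lay on chromosome III for TUP1, TAF2, SNT1 and CDC39 and 19 for HCM1. SRD1 had 1 such gene among its 20 closest, YCL021W-A (0.90), followed by YHL009W-B of chromosome VIII (0.88) and the F-box gene GRR1 of chromosome X (0.84).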

How the data were processed

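The authors deposited log2 values made with RMA, per the submitters' processing notes. The version was not given in the sources used here, nor was the grouping of arrays for normalization. Of 10928 probe sets, 5498 could be assigned to 5449 genes (RefSeq table, assembly R64), and 47 genes with several probe sets were averaged. Arrays sharing at least 0.1% of identical values formed a set (9 sets). A gene was tested if it exceeded background, the 95th percentile of 1746 other-species probe sets on each array (4.23 to 5.36), on at least 2 arrays. Tests used limma 3.58.1 in R 4.3.3 with trended variance, the set as a term, and Benjamini-Hochberg adjustment over 5335 genes (23 diploid arrays, 9 residual degrees of freedom) or 5352 genes (17 haploid and spore arrays, 10). Exact tests used scipy. The limma code was tested on simulated data.

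Named genes were the 6 regulators, every called gene of 7 lists of partners, targets and other chromosome III regulators (or the 2 with the largest change), the 3 most alike genes and direct neighbours. ENA1 could not be matched. These genes and lists were chosen with earlier results of these data known. The design text speaks of independent repetitions, but the labels tie no array to a culture, so the spread between replicates may be partly technical. The number of arrays limits the precision.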

Additional observations from a re-analysis of the deposited data

Results flagged for a closer look

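Within groups of 4 to 10 arrays, 3 of 30 sets of centred values held an array whose gap to the next was large relative to their range. Chance gives about 1 in 20. SNT1 in abrupt-heat array 4 was 0.36, with the other 3 at 0.76 to 0.77. TAF2 in H2 array 1 from 30 °C was -0.58, with the other 3 at -0.52. That gap is small beside the SD of 0.179 to 0.242 over genes between pairs of these arrays, and it was flagged because the other 3 nearly coincide. CDC39 in H2 array 3 from 30 °C was 0.65, with the other 3 at 1.16 to 1.17.

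On minimal medium, 4 regulators differed between H2 and the trisomic descendants by the direct test given above. The mean difference from the ancestor in TUP1 was 0.43 in H2 and -0.10 in the trisomic descendants, 0.53 apart. HCM1 had 0.65 in H2 and 0.22 in the descendants, a gap of 0.43 that was not called without the gradual-heat arrays (limma, adjusted p = 0.0725). TAF2 had -0.55 in H2 and -0.12 in the descendants, a gap of -0.43, and SRD1 had -1.06 and 0.49, a gap of -1.55.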

How the results depend on the processing

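The number of the 6 regulators called by limma moved with the fit as follows, and the cause was not tested. Abrupt heat against the ancestor (2 called) had 0 without a set term, with the compared groups alone, with all 40 arrays in 1 fit and without the gradual-heat arrays, the last chosen after seeing the data. Abrupt heat against 30 °C (2) had 0 under the same 4 settings and 1 after quantile normalization over all arrays. H2 from 30 °C against abrupt heat (4) had 0 with the groups alone, with all arrays and without the gradual-heat arrays. The trisomic clone against the ancestor (2) had 0 without a set term, with all arrays, after quantile normalization, after centring on the other chromosomes and without the gradual-heat arrays, and 4 with the set as a random term. The monosomic clone against the ancestor (1) had 0 without a set term, with all arrays and without the gradual-heat arrays, and 2 with a random term. Trisomic against monosomic (6) had 0 without a set term, which called 2 genes in all, and 0 with all arrays (17 genes in all), and 6 under the other settings run. H2 on minimal medium (4) had 0 without a set term and with the groups alone, and 1 with all arrays. Comparisons with none called gained calls: abrupt against gradual heat had 4 without a set term (2220 genes in all), gradual heat against the ancestor 1 with the groups alone, and the spores of the 39 °C line 5 without a set term (3320 genes in all).

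Leaving out 1 array at a time gave 1 to 2 calls for abrupt heat against the ancestor and against 30 °C, 3 to 4 for H2 from 30 °C against abrupt heat, 4 to 5 for H2 on minimal medium, 0 to 1 for the trisomic descendants there (1 without array 1), and no other change. Leaving out abrupt-heat array 2 or 4, where a contrast rests on it alone, could not be fitted. Replicate numbers were not shown to pair the arrays: deviations of same-numbered abrupt and gradual arrays correlated at 0.10, 0.17, 0.03 and 0.11, those of abrupt and H2 arrays at -0.24 to -0.05, and those of abrupt and 30 °C arrays at -0.28 and -0.10. With the replicate number as a block and the groups alone, abrupt against gradual heat had 4 calls, and H2 against abrupt heat and abrupt heat against 30 °C had 0 each. Of 1068 values of single regulators under alternatives, 27 changed sign without being called under either setting, and no called value changed sign. The exact tests kept their side of the threshold on values as deposited. All 6 regulators were above background on every array. SRD1 was the closest to it, at 6.18 against a background of 4.71 in the monosomic clone, and the effect of low signal on its values was not tested.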
